A study of Homo sapiens with 13 samples.

Results

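The genes described here are the human protein-coding zinc finger genes whose symbols run from ZNF500 to ZNF899 and that were expressed in HuT78 cells, an established line from a patient with Sézary syndrome, a leukaemic cutaneous T-cell lymphoma. Members were the genes of that numbering with a mean of at least 1 CPM (the gene's count scaled to a fixed library total) over 13 RNA-seq libraries. Of 254 such genes in the table, 202 met the rule, and the other 52 lay under it. The mean takes in the treated libraries, so a gene could also qualify through a treatment in which it was high, and 2 members, ZNF595 and ZNF713, had a DMSO mean under 1 CPM. Treatment lasted 72 h. There were 4 libraries of cells given 10 nM chaetocin, 3 of cells given 10 nM F5446, 4 of cells given 1 µM romidepsin and 2 of cells given DMSO, the solvent control. Chaetocin and F5446 are inhibitors of SUV39H1, an enzyme that places the H3K9me3 mark, and romidepsin is an inhibitor of histone deacetylases that is used against this lymphoma. All libraries came from the 1 cell line, and the labels do not say that replicates were separate cultures, so the p-values measure the spread between these libraries only.

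Most ZNF proteins bind DNA through arrays of C2H2 zinc fingers. Many also carry a KRAB domain, which recruits TRIM28 and, through it, the methyltransferase SETDB1 and heterochromatin proteins that keep transposable elements silent. Human KRAB zinc finger genes lie in clusters, the densest of them on chromosome 19, and the 3′ parts of clustered ZNF genes themselves carry H3K9me3. The question put to these data was whether inhibitors of an H3K9 methyltransferase raised the RNA of such genes.

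A KRAB domain was found by sequence pattern in 131 of the 202 members and not in 71. The members had a median of 9 C2H2 fingers by pattern, with 11 in those with KRAB and 7 in those without, and up to 30 in a single protein (ZNF646). Neighbours were read from their symbols, as ZNF or ZFP followed by a number. This misses zinc finger genes with other names, such as ZSCAN1 beside ZNF606, and counts read-through or opposite-strand entries named after the gene itself, such as ZNF593OS beside ZNF593. On that reading, of 201 members with a known gene order, 76 had such a neighbour on both sides, 62 on 1 side and 63 on neither. Of 170 members with a promoter entry in RefSeq, 96 were on chromosome 19 and 15 on chromosome 16.

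The libraries held 19901052 to 30816188 counts, of which the members took 0.324% to 0.411%. The 9 T-cell markers were all above a mean of 1 CPM and summed to 911 to 1531 CPM, and the NK-cell markers summed to at most 0.601 CPM. Epithelial markers summed to 89.3 to 171 CPM (5 of 6 above a mean of 1 CPM), B-cell markers to 40.7 to 88.0 CPM (3 of 5), fibroblast markers to 17.8 to 28.3 CPM (2 of 6) and myeloid markers to 1.5 to 4.93 CPM (1 of 5), and their part in the results was not tested. The third chaetocin library stood apart, with the lowest members' share (0.324%) and the highest mitochondrial share of counts (15.9%, against 5.22% to 12.7% in the others). From here on CPM is scaled by the trimmed mean of M-values (TMM), which corrects totals for a few very abundant genes.

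The summed level of the 202 genes differed between treatments by less than the spread of the libraries. It was 3886 ± 122 CPM with chaetocin (SD, n = 4), 3885 ± 130 CPM with F5446 (SD, n = 3), 3882 ± 180 CPM with romidepsin (SD, n = 4) and 3867 ± 181 CPM with DMSO (SD, n = 2). By library the sums were 3935, 3806, 3769 and 4035 CPM with chaetocin, 3740, 3926 and 3990 CPM with F5446, 3985, 3984, 3613 and 3945 CPM with romidepsin, and 3738 and 3995 CPM with DMSO. Each treatment overlapped the DMSO range. The median member stood at 12.1 CPM with chaetocin, 12.2 CPM with F5446, 12.7 CPM with romidepsin and 12.2 CPM with DMSO. On the log2 scale, the lowest medians of single libraries were 3.42 in the third romidepsin library and 3.49 in the third chaetocin library, against up to 3.70 elsewhere.

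**Figure D1:**
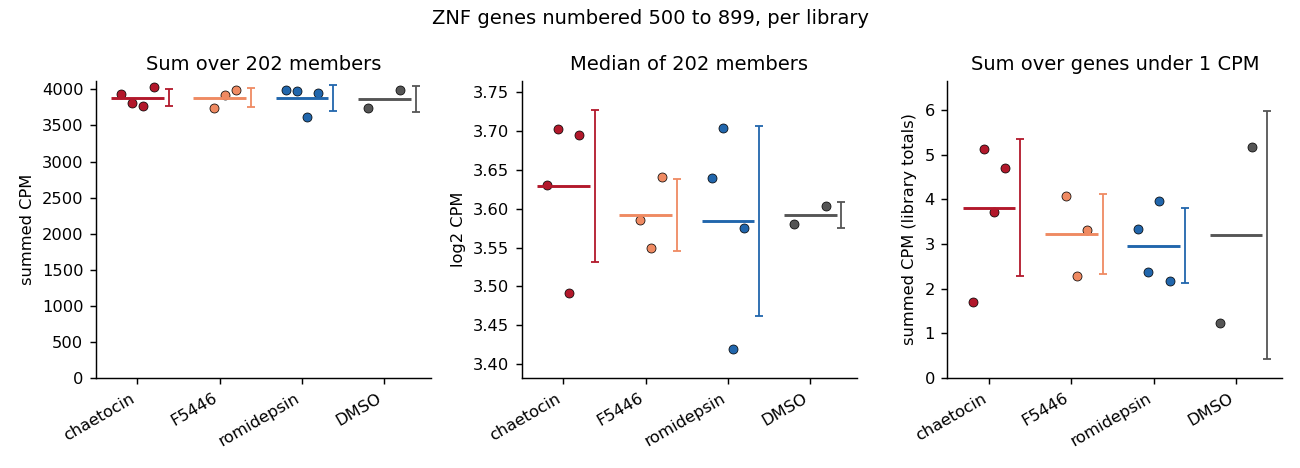
Summed CPM of the 202 members (left), their median level in log2 CPM (centre, axis not starting at 0) and summed CPM of the 52 genes under the threshold (right), with 1 point per library, a line at the group mean and a bar of ± 1 SD. The member sums with chaetocin, F5446 and romidepsin overlap the DMSO libraries at 3738 and 3995 CPM.

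Compared per kilobase of exon, the members with the highest levels were ZNF593, a nucleolar protein linked to ribosome assembly, at 25.9 CPM per kb, ZNF770 at 22.4, ZNF622, a factor of large ribosomal subunit maturation, at 20.9 and ZNF644, a partner of the H3K9 methyltransferases EHMT1 and EHMT2, at 19.2. ZNF580 (16.6), ZNF768 (16.2), ZNF777 (12.5), ZNF664 (12.2), ZNF805 (11.2) and ZNF706 (11 CPM per kb) followed. Members with KRAB had a median of 2.03 CPM per kb and those without a median of 3.47 CPM per kb. Just inside the threshold were ZNF713 (1.09 CPM), ZNF565 (1.24 CPM) and ZNF821 (1.28 CPM), and just outside were ZNF843 (0.866 CPM), ZNF781 (0.482 CPM) and ZNF540 (0.328 CPM), as means over all libraries of CPM scaled to library totals, without TMM.

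The abundant members varied least. The coefficient of variation over the 13 libraries had a median of 20.5% and was lowest for ZNF800 at 7.59%, ZNF644 at 7.82% and ZNF770 at 7.97%. ZNF644 had 148, 138, 122 and 150 CPM with chaetocin, 126, 148 and 159 CPM with F5446, 154, 146, 144 and 154 CPM with romidepsin, and 149 and 160 CPM with DMSO, with overlap between all groups. The highest coefficient, 89.4%, belonged to ZNF595, one of the least expressed members.

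Chaetocin against DMSO gave no call. By edgeR's quasi-likelihood test with Benjamini-Hochberg adjustment over 17252 genes, 0 of the 202 members passed an adjusted p of 0.05, where 0% of all genes tested did. Treatment was the only factor in this fit, which gave all p-values and intervals of these results. With a block for the replicate number, 10 of all genes were called and 0 members. The last section gives the other comparisons with that block. At an unadjusted p under 0.05, 4 members were higher, against 2.16% of all genes, and 1 was lower, against 1.91% of all genes. All libraries lay above DMSO for 12 members (5.94%), against 5.22% of all genes, and below DMSO for 8 members (3.96%), against 6.09% of all genes. The median log2 fold change of the members was 0.01, with 105 of 202 above 0, and that of all genes was 0.01, with 51.0% above 0.

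F5446 against DMSO likewise gave 0 calls among the members and 0% among all genes. At an unadjusted p under 0.05, 3 members were higher, against 1.51% of all genes, and 1 lower, against 0.968% of all genes. Libraries did not overlap for 23 members that were higher (11.4%), against 9.44% of all genes, and for 20 that were lower (9.90%), against 9.12% of all genes. The 23 include ZNF595, which met the 1 CPM rule only through F5446 and romidepsin, so its place there follows from the rule. The members' median was 0.01, with 102 of 202 above 0, beside 0.01 for all genes. Only replicate number 4 was in both F5446 and DMSO, and these counts and fold changes take no account of replicate.

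Romidepsin against DMSO gave 0 calls among the members and 0% among all genes. At an unadjusted p under 0.05, 5 members were higher, against 1.82% of all genes, and 1 lower, against 1% of all genes. Libraries did not overlap for 11 members that were higher (5.45%), against 5.34% of all genes, and for 5 that were lower (2.48%), against 5.17% of all genes. The 11 include ZNF595 as well, whose place there also follows from the rule. The members' median was -0.01, with 95 of 202 above 0, beside 0.01 for all genes. These 3 comparisons share the same DMSO libraries and are not independent of each other.

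**Figure D2:**
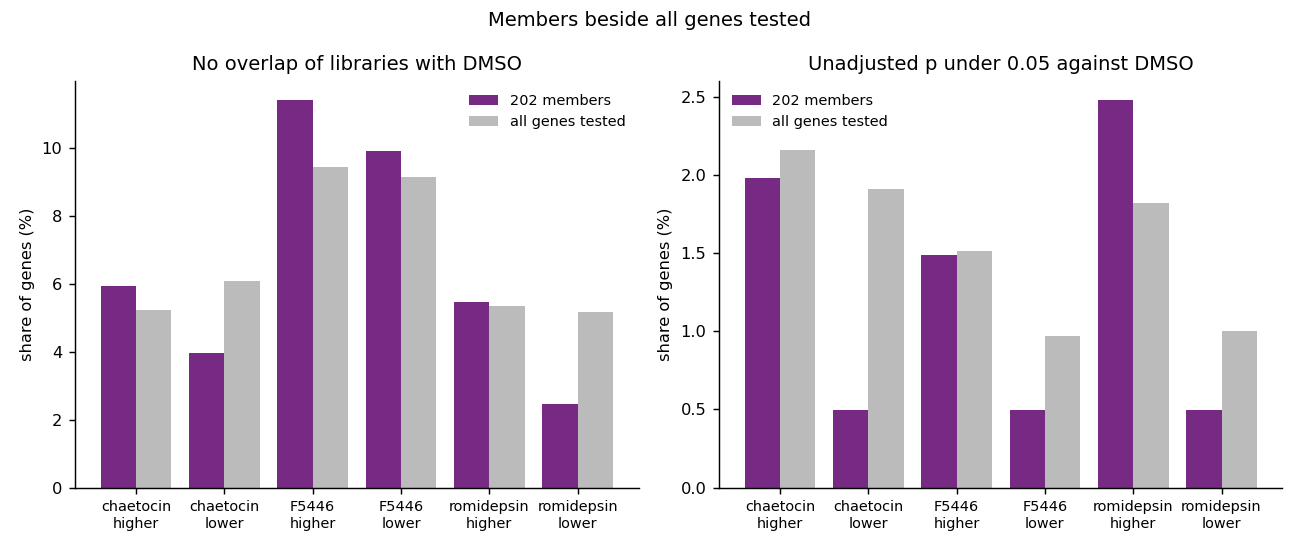
Share in percent of the 202 members (purple) and of all 17252 genes tested (grey) whose libraries did not overlap with DMSO (left) or that had an unadjusted p under 0.05 (right), by treatment and direction. With F5446 11.4% of members and 9.44% of all genes lay wholly above DMSO. The members wholly above DMSO with F5446 or romidepsin include ZNF595, which met the 1 CPM rule only through these treatments.

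Taking both SUV39H1 inhibitors as 1 mean against DMSO gave 0 called members and 0% of all genes. At an unadjusted p under 0.05, 5 members were higher, against 1.83% of all genes, and 1 lower, against 1.3% of all genes. Against romidepsin, the mean of both inhibitors again gave 0 called members, while 3 of all genes (0.0174%) passed. There 1 member was higher at an unadjusted p under 0.05, against 1.48% of all genes, and 4 were lower, against 2.7% of all genes. Chaetocin against F5446, which were given at the same dose and time, gave 0 called members and 0% of all genes, with 3 members higher at an unadjusted p under 0.05, against 1.43% of all genes, and 1 lower, against 1.97% of all genes.

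The intervals show, gene by gene, which sizes of change these libraries left possible. The upper bound of the 95% confidence interval stayed under a log2 fold change of 1, a doubling, for 159 of the 202 members with chaetocin, 171 with F5446, 165 with romidepsin and 173 with the mean of both inhibitors. The median distance from the fold change to either bound of the interval was 0.56 with chaetocin, 0.59 with F5446 and 0.55 with romidepsin. For chaetocin it was 0.84 in the third of members with the lowest level, where 33 of 67 upper bounds were under 1, and 0.39 in the third with the highest level, where 66 of 67 were. For many weakly expressed members the interval thus reached a doubling. These intervals are not adjusted for the number of genes tested. They therefore do not tell which change would have passed the adjusted threshold, at low or at high level.

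**Figure D3:**
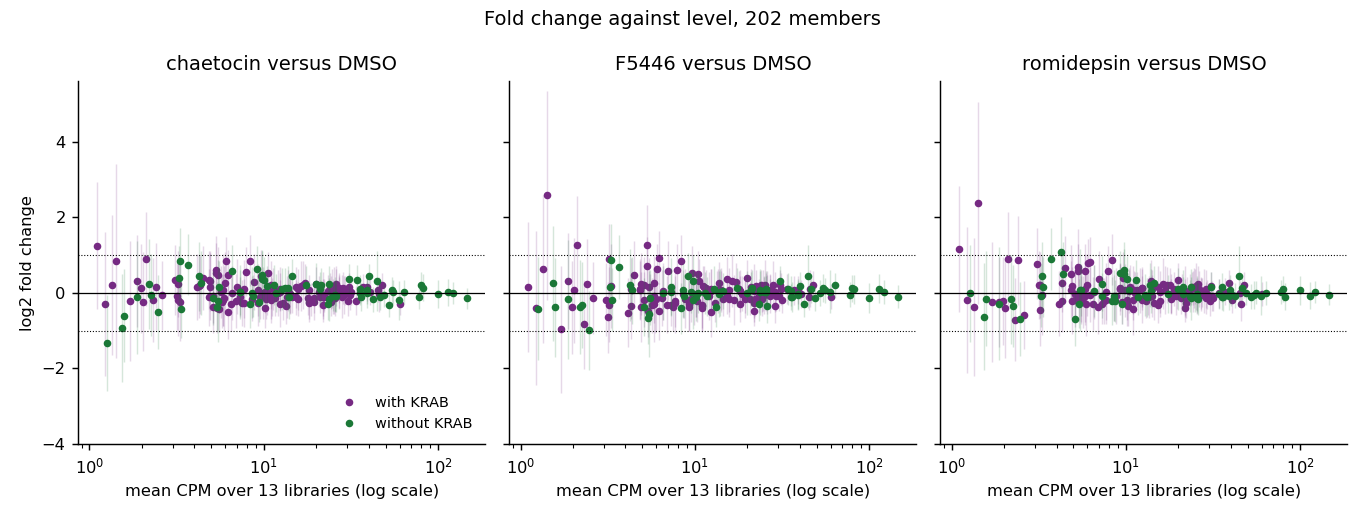
Log2 fold change of the 202 members against DMSO (vertical axis) by mean CPM over the 13 libraries (log axis), with 95% confidence intervals as pale lines and dotted lines at a doubling and a halving, in purple for members with KRAB and green for those without. The points narrow towards 0 as the level rises.

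Members with and without KRAB had medians close to 0. The median log2 fold change of the 131 members with KRAB was -0.00 with chaetocin, -0.02 with F5446 and -0.01 with romidepsin, and that of the 71 without was 0.01, 0.02 and -0.02 in the same order. The 71 members that had KRAB and also a ZNF or ZFP symbol on both sides had medians of -0.01 with chaetocin, 0.04 with F5446 and 0.02 with romidepsin. The 96 members placed on chromosome 19 by a promoter entry, which are not all of those on it, had medians of -0.04, 0.04 and -0.00 in that order. None of these groups held a called member. The 202 expressed ZNF genes with lower numbers had medians of -0.07 with chaetocin, -0.05 with F5446 and -0.07 with romidepsin, also with 0 called.

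The KRAB gene ZNF624 had the smallest p against DMSO for the mean of both inhibitors. It had 10.1, 8.60, 7.58 and 9.13 CPM with chaetocin, 9.60, 8.53 and 8.26 CPM with F5446, 11.8, 10.0, 5.22 and 9.19 CPM with romidepsin, and 6.32 and 3.53 CPM with DMSO. Chaetocin and F5446 lay above both DMSO libraries, while 1 romidepsin library lay between them. The log2 fold change was 0.85 with chaetocin (95% interval 0.17 to 1.52), 0.84 with F5446 (0.14 to 1.54) and 0.87 with romidepsin (0.20 to 1.55), each with an adjusted p of 1. The size rested on which DMSO library was used: with chaetocin it was 0.49 without the fourth DMSO replicate and 1.33 without the first.

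ZNF528, a KRAB gene between other ZNF genes on chromosome 19, had 5.44, 5.13, 8.87 and 7.62 CPM with chaetocin, 5.86, 6.13 and 5.59 CPM with F5446, 7.21, 6.45, 5.54 and 7.01 CPM with romidepsin, and 3.59 and 3.96 CPM with DMSO. Every treated library lay above both DMSO libraries. The log2 fold change was 0.84 with chaetocin (0.20 to 1.48) and 0.79 with romidepsin (0.15 to 1.43), with an adjusted p of 1 in both. ZNF684, a KRAB gene on chromosome 1, had 6.26, 6.48, 3.54 and 5.95 CPM with chaetocin, 8.49, 7.86 and 6.63 CPM with F5446, 8.59, 5.65, 8.01 and 5.89 CPM with romidepsin, and 4.41 and 3.62 CPM with DMSO. F5446 and romidepsin lay above DMSO, and the third chaetocin library lay below it. Its log2 fold change with F5446 was 0.93 (0.23 to 1.63) at an adjusted p of 1.

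ZNF641, a KRAB gene, was the member lower than DMSO at the smallest p. It had 23.1, 24.2, 21.2 and 18.9 CPM with chaetocin, 19.9, 20.5 and 18.3 CPM with F5446, 20.6, 21.5, 19.2 and 22.3 CPM with romidepsin, and 26.9 and 28.2 CPM with DMSO. All treated libraries lay below both DMSO libraries. The log2 fold change was -0.49 with F5446 (-0.88 to -0.11) and -0.40 with romidepsin (-0.76 to -0.03), with an adjusted p of 1 in both.

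The 250 bases upstream of the start of these genes are shown because they were the KRAB members at the smallest p in several comparisons, 3 higher and 1 lower. They are from RefSeq on GRCh38.p14, on the strand of the gene, 5′ to 3′. Capitals mark the ETS core CCGGAAG, the GC box GGGCGG and the CRE core TGACGT, on either strand. In ZNF684 (chr1:40531387-40531636, plus strand) the CRE core runs straight into an ETS core, and ZNF641 (chr12:48350920-48351169, minus strand) has overlapping GC boxes. ZNF624 is at chr17:16653851-16654100, minus strand, and ZNF528 at chr19:52397599-52397848, plus strand.
ZNF624: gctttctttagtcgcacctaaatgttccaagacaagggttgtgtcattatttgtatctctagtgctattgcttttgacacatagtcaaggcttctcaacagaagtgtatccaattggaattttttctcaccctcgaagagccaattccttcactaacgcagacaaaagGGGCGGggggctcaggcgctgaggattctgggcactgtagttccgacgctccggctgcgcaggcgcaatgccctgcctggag
ZNF528: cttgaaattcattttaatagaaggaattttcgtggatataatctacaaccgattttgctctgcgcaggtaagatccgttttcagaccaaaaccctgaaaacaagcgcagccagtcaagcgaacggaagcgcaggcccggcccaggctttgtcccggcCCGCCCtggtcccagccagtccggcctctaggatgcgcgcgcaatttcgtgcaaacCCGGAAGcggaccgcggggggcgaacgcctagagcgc
ZNF684: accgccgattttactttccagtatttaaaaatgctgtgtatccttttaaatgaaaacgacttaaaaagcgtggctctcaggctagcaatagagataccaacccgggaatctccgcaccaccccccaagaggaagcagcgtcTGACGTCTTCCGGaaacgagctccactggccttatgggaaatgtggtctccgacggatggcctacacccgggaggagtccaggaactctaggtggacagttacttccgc
ZNF641: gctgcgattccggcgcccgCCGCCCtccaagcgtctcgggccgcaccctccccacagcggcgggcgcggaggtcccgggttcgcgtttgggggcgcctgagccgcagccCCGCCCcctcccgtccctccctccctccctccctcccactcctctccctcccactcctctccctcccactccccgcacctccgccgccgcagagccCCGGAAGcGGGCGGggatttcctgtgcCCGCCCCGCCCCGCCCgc

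Across the 170 members with an entry, the ETS core was in 27.6% of these windows, beside 16% of the 10202 protein-coding genes tested and 8.82% of all 27305 promoters. It was in 31.2% of members with KRAB and 20.7% of those without. The GC box was in 61.8% of members, beside 66.6% of the protein-coding genes tested and 42.3% of all promoters. The CRE core was in 12.9% of members, beside 10.4% of the protein-coding genes tested and 7.42% of all promoters. The TATA box TATAAA was in 4.12% of members, beside 5.48% of the protein-coding genes tested and 11.1% of all promoters. The NRF1 core GCATGCG was in 5.88% of members, beside 5.77% of the protein-coding genes tested and 3.57% of all promoters. The ZNF143 core ACTACAA was in 3.53% of members, beside 3.66% of the protein-coding genes tested and 2.64% of all promoters. Members had a median of 18.5 CpG sites per window, beside 21 in the protein-coding genes tested and 11 in all promoters. A match describes letters in the window and is not evidence of binding.

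ZNF598, which marks collided ribosomes as a ubiquitin ligase, had the smallest p of any member, for both inhibitors against romidepsin. It had 47.0, 46.5, 52.5 and 44.7 CPM with chaetocin, 36.6, 43.1 and 40.7 CPM with F5446, 34.9, 37.1, 31.9 and 34.3 CPM with romidepsin, and 30.7 and 39.7 CPM with DMSO. Chaetocin lay above every other group, while F5446 overlapped both romidepsin and DMSO. The log2 fold change of the mean of both inhibitors over romidepsin was 0.34 (0.10 to 0.58) at an adjusted p of 0.882, and that of chaetocin over DMSO was 0.44 (0.10 to 0.77) at an adjusted p of 1, or 0.27 without the first DMSO replicate.

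ZNF670, a KRAB gene, had 4.13, 5.47, 1.20 and 7.58 CPM with chaetocin, 6.16, 8.71 and 8.46 CPM with F5446, 3.58, 5.05, 6.68 and 5.34 CPM with romidepsin, and 2.59 and 3.86 CPM with DMSO. F5446 alone lay wholly above DMSO, at a log2 fold change of 1.27 (0.21 to 2.32) and an adjusted p of 1. ZNF582, a KRAB gene known for promoter methylation in cervical cancer, had 2.69, 3.10 and 2.33 CPM with F5446 against 1.63 and 0.628 CPM with DMSO, a log2 fold change of 1.26 (-0.04 to 2.56). It was 0.73 without the fourth DMSO replicate and 2.09 without the first. ZNF579 had 8.22, 8.76, 13.8 and 10.7 CPM with chaetocin against 5.65 and 7.58 CPM with DMSO, a log2 fold change of 0.64 (0.06 to 1.23). For ZNF579 romidepsin also lay wholly above DMSO, while F5446 did not. ZNF821, near the threshold, had 0.478, 0.907, 0.598 and 0.661 CPM with chaetocin against 1.44 and 1.93 CPM with DMSO, a log2 fold change of -1.34 (-2.60 to -0.07). None of the 4 passed the adjusted threshold.

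ZNF503, a corepressor of development, had 5.10, 6.80, 5.06 and 7.15 CPM with romidepsin against 2.63 and 3.09 CPM with DMSO, a log2 fold change of 1.07 (0.14 to 2.01). With chaetocin it had 3.09, 3.69, 1.99 and 6.72 CPM and with F5446 3.43, 4.50 and 1.93 CPM, so the mean of both inhibitors over romidepsin was -0.75 (-1.38 to -0.12). ZNF513, which is tied to retinal dystrophy, had 5.33, 5.40, 3.14 and 3.30 CPM with romidepsin against 2.49 and 2.08 CPM with DMSO, a log2 fold change of 0.91 (0.09 to 1.72). Romidepsin lay wholly above DMSO for both genes, but the adjusted p was 1. For ZNF513, chaetocin and F5446 also lay wholly above DMSO. Against romidepsin, both inhibitors were also at log2 fold changes of -0.55 for ZNF792, -0.69 for ZNF836 and -0.45 for ZNF681, KRAB genes on chromosome 19, with adjusted p-values of 1.

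Between the SUV39H1 inhibitors, ZNF829 had 28.4, 30.1, 44.3 and 29 CPM with chaetocin against 25.6, 21.3 and 23.7 CPM with F5446, a log2 fold change of 0.48 (0.10 to 0.86), or 0.32 without the third chaetocin replicate. ZNF692 had 12.6, 16.0, 16.7 and 15.8 CPM with chaetocin against 11.9, 11.8 and 8.51 CPM with F5446, a log2 fold change of 0.50 (0.05 to 0.95). These libraries did not overlap for either gene. ZNF507 was at -0.31 (-0.60 to -0.02), ZNF628 at 0.40 (0.00 to 0.79) and ZNF814 at 0.54 (-0.02 to 1.10), all with adjusted p-values of 1. ZNF507 was at -0.20 without the fourth F5446 replicate, and ZNF814 at 0.88 without the second. ZNF814 has close relatives on chromosome 19, so its reads may be split among them.

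**Figure D4:**
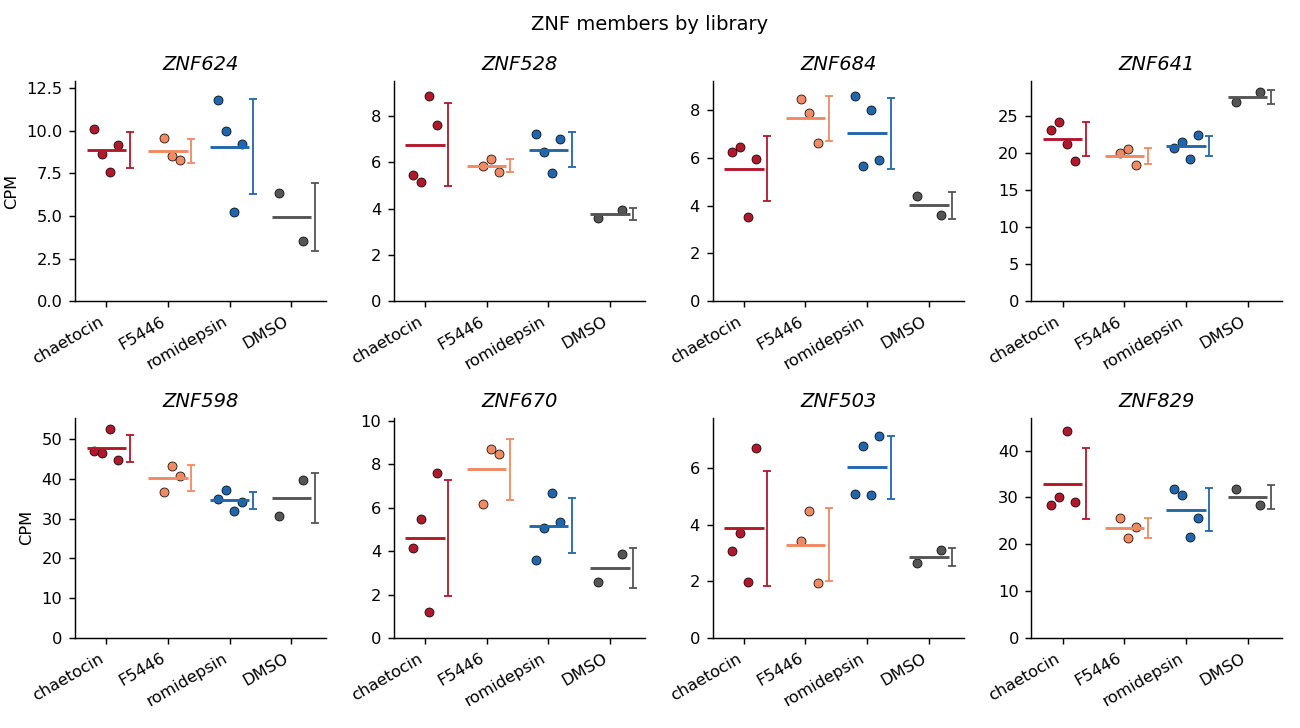
CPM of 8 named members, with 1 point per library, a line at the group mean and a bar of ± 1 SD (n = 4 for chaetocin, 3 for F5446, 4 for romidepsin and 2 for DMSO). ZNF641 lies lower in every treated library than in DMSO, and ZNF829 has 1 chaetocin library at 44.3 CPM.

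Log2 fold changes beyond 1 in either direction all belonged to the third of members with the lowest level. ZNF595, a KRAB gene, had 0.0435, 1.5, 0 and 1.17 CPM with chaetocin, 1.85, 1.55 and 3.56 CPM with F5446, 0.851, 0.750, 3.95 and 2.46 CPM with romidepsin, and 0.623 and 0.145 CPM with DMSO. F5446 and romidepsin lay wholly above DMSO, and chaetocin overlapped it. The gene met the 1 CPM rule only through F5446 and romidepsin, so its place above DMSO follows from the rule and is given as a description, and it was named after its values were seen. Its log2 fold change was 2.57 with F5446 (-0.19 to 5.34) and 2.38 with romidepsin (-0.30 to 5.05), with adjusted p-values of 1. ZNF713, also under 1 CPM in DMSO, was at 1.25 with chaetocin (-0.43 to 2.92). ZNF713 too met the rule only through treated libraries, so a rise over DMSO follows in part from the rule. ZNF608 was at -1.18 for chaetocin over F5446 (-2.45 to 0.08).

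Members on the lists of chromatin cofactors, of RNA and ribosome factors and of lymphocyte and developmental factors gave no call either. Of 17 listed chromatin cofactors, 15 were members, 0 were called, and their median log2 fold change was -0.05 with chaetocin, 0.02 with F5446 and -0.02 with romidepsin. Among them ZNF703, a corepressor amplified in breast cancer, was at 0.47 with chaetocin (-0.18 to 1.13), and ZNF518B, a partner of EHMT2, at -0.30 with F5446. ZNF827, which recruits the NuRD complex, had 48.9 ± 4.06 CPM with chaetocin (SD, n = 4), 45.9 ± 2.5 CPM with F5446 (SD, n = 3), 50.3 ± 4.95 CPM with romidepsin (SD, n = 4) and 50.8 ± 4.93 CPM with DMSO (SD, n = 2). All 7 listed RNA and ribosome factors were members, with medians of 0.10, 0.05 and -0.00 in the order chaetocin, F5446, romidepsin. Among these, ZNF598 was the only one at an unadjusted p under 0.05. It was higher with chaetocin over DMSO, against 2.16% of all genes. For the mean of both inhibitors it was higher over DMSO, against 1.83%, and over romidepsin, against 1.48% of all genes. Of 9 lymphocyte and developmental factors, 5 were members and 0 were called, with ZNF503 the only one at an unadjusted p under 0.05. It was higher with romidepsin over DMSO, against 1.82% of all genes. It was lower with the mean of both inhibitors than with romidepsin, against 2.7% of all genes.

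A list of KRAB corepressors, H3K9 methyltransferases and demethylases and heterochromatin proteins was read beside the members. Of 35 listed symbols, 32 were tested and 0 were called, while ATF7IP2 and ZFP57 were at or near 0 in all libraries and FAM208A, an older symbol of TASOR, was not used. The median log2 fold changes were -0.00 with chaetocin, -0.02 with F5446 and -0.04 with romidepsin. SUV39H1, the target of both inhibitors, had 38.2 ± 5.68 CPM with chaetocin (SD, n = 4), 42.8 ± 6.33 CPM with F5446 (SD, n = 3), 38.6 ± 4.0 CPM with romidepsin (SD, n = 4) and 37.7 ± 4.54 CPM with DMSO (SD, n = 2). TRIM28, the KRAB corepressor, had 414, 425, 372 and 427 CPM with chaetocin, 349, 504 and 451 CPM with F5446, 359, 319, 432 and 389 CPM with romidepsin, and 296 and 354 CPM with DMSO. Chaetocin lay wholly above DMSO and 1 F5446 library lay between the DMSO values, with log2 fold changes of 0.33 (0.00 to 0.66) and 0.42 (0.07 to 0.77) at adjusted p-values of 1. SETDB1 had 61.1 ± 6.61 CPM with chaetocin (SD, n = 4), 72.7 ± 5.91 CPM with F5446 (SD, n = 3), 60.6 ± 11.1 CPM with romidepsin (SD, n = 4) and 67.2 ± 11.3 CPM with DMSO (SD, n = 2). With romidepsin, 2 of the 32 were lower at an unadjusted p under 0.05, against 1% of all genes, and 0 were higher. These were MORC3 at -0.36 (-0.70 to -0.01) and CHD4 at -0.44 (-0.88 to -0.00), and neither passed the adjusted threshold. For CHD4, 1 romidepsin library at 23.6 CPM lay above the lower DMSO library at 20.2 CPM.

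The 52 genes under the threshold were weak or silent over all treatments together, since a gene that came on strongly in 1 treatment would have passed the rule and counted as a member. Every member had counts in both DMSO libraries. Of the 52 genes under the threshold, 19 had no count in any library and 33 had some. Together they summed to 3.81 ± 1.53 CPM of the library totals with chaetocin (SD, n = 4), 3.22 ± 0.895 CPM with F5446 (SD, n = 3), 2.96 ± 0.840 CPM with romidepsin (SD, n = 4) and 3.2 ± 2.78 CPM with DMSO (SD, n = 2). Of the 33, 16 had no count in either DMSO library. The rule itself limits how high they could be. None of those 16 had at least 10 counts in every library of any treatment, and the highest sum over the 11 treated libraries was 45 counts. With 11 treated libraries and 2 of DMSO, a gene with scattered counts is more easily absent from DMSO, and the share over all genes was not computed. Conversely, ZNF860 (20 counts), ZNF555 (9), ZNF705A (5), ZNF804B (4) and ZNF677 (3) had counts only in the fourth DMSO library. ZNF763, a KRAB gene, had counts of 0, 9, 0 and 0 with chaetocin, 11, 0 and 0 with F5446, 5, 8, 8 and 4 with romidepsin, and 0 and 0 with DMSO, and was named after its values were seen. ZNF843 had 4, 34, 24 and 58 counts with chaetocin, 32, 17 and 31 with F5446, 19, 5, 35 and 7 with romidepsin, and 0 and 16 with DMSO, and like the other 3 tested genes of this group it was not called.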

How the data were processed

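RNA-seq counts per gene were deposited by the authors as 1 table of whole-number counts for 13 libraries. Per the submitters' processing notes, bcl2fastq 2.20.0.422, cutadapt 1.8.1 and HTSeq 0.6.1 were used, on build hg19. Aligner, annotation release and strand setting: not given in the sources used here. Reads of overlapping antisense genes and near-identical copies may therefore be shared. The F5446 libraries were grouped by their titles, since a treatment label numbers the compound differently in some of them.

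All 45744 genes entered 1 fit with edgeR 4.0.16 (R 4.3.3): low genes were removed by filterByExpr, leaving 17252, library sizes were scaled by TMM, and the robust quasi-likelihood test was run with treatment as the only factor, two-sided, with Benjamini-Hochberg adjustment over all genes and a threshold of 0.05. CPM are from the same scaling, with intervals at 95%. The script was tested on simulated data. DESeq2 1.42.0 and limma 3.58.1 (voom) were alternatives, as were other scalings and filters, a block for the replicate number, and fits that each omitted 1 library. Libraries with the same replicate number deviated together (correlations of 0.190 to 0.722 in all 15 pairs of libraries). The numbers were therefore taken to pair them in the replicate block, on the data and not on a label. Pairs with different numbers were not examined, and the main fit takes no account of pairing. The DMSO libraries are numbers 1 and 4 and the F5446 libraries 2, 3 and 4, so these groups share only number 4.

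KRAB domains and fingers were found by pattern in proteins translated from GENCODE 29, exon lengths came from the same release, and promoters and gene order from RefSeq (GRCh38.p14). Counts and these annotations come from different releases and were joined by gene. The members and lists were chosen with earlier results of these data known. Named members were the 5 with the smallest p in each comparison, the 10 highest per kb, those next to the threshold and those on the role lists. ZNF595, ZNF763 and the genes named for counts only in DMSO fall outside this rule and were chosen after their values were seen. ZNF646, ZNF800 and ZNF606 are given only for a feature or an extreme of spread. Depth limits low genes, and intervals cover these libraries only.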

Additional observations from a re-analysis of the deposited data

Results flagged for a closer look

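In groups of 4 libraries, 46 sets of values were examined for 1 library far from the rest, and 4 had one, where chance gives about 1 in 20. The members' share of counts was 0.3237% in the third chaetocin library, against 0.393% in the next lowest. ZNF829 stood at 44.26 CPM in that library, against 30.07 CPM in the next highest. The members' summed level was 3613 CPM in the third romidepsin library, against 3945 CPM in the next lowest. ZNF692 stood at 17.02 CPM in that library, against 11.64 CPM in the next highest. The part of library quality in these values was not tested.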

How the results depend on the processing

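No member was called in any of the 6 comparisons under any alternative, the replicate block included, and the members' median log2 fold change stayed between -0.03 and 0.06 with chaetocin, -0.03 and 0.06 with F5446 and -0.03 and 0.04 with romidepsin. None of 690 alternative values of 30 named results reversed or passed the threshold. Counts over all genes did move, and the cause was not tested. Chaetocin against DMSO (0 called) gave 10 with DESeq2, 1 with voom, 9 with no filter, 1 with the non-robust fit, 10 with the replicate block, 7 with a term for replicates 1 and 2 against 3 and 4, and 0 to 2 with a library left out. F5446 against DMSO (0) gave 1 with DESeq2. Romidepsin against DMSO (0) gave 1 with DESeq2, 5 with no filter, 1 with the replicate block and 1 with the term. The mean of both inhibitors against DMSO (0) gave 2 with DESeq2, 1 with no filter, 1 with the replicate block, 1 with the term and 0 to 2 with a library left out. Against romidepsin (3) it gave 21 with DESeq2, 5 with voom, 7 with totals only, 31 with no filter, 5 with the non-robust fit, 56 with the replicate block, 37 with the term and 0 to 10 with a library left out. Chaetocin against F5446 (0) gave 2 with DESeq2, 9 with no filter, 11 with the replicate block and 5 with the term. With 2 DMSO libraries, the intervals of many weakly expressed members reached a doubling.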
